A study of Mus musculus with 6 samples.

Results

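The 44 genes of the GENCODE annotation whose symbols start with H2- and that start between 33.8 and 37.3 Mb of mouse chromosome 17 (mm10) were taken as the genes of the major histocompatibility complex (MHC), out of 51229 autosomal genes. They comprised 33 protein-coding genes and 11 pseudogenes of 3 annotated kinds (6 unprocessed, 4 polymorphic and 1 transcribed unprocessed). One further H2- gene of the annotation, H2-M2, starts outside this window and was not counted. The window was read through its 35 bins of about 100 kb, numbered 1 to 35 from the centromeric side, of 24067 autosomal bins, and 19 of the 35 hold the start of at least 1 H2- gene. In situ Hi-C, which counts read pairs joining 2 places of the genome that lay close together in the nucleus, had been performed on B220+ B-cell progenitors grown from bone marrow. There were 2 Erg KO libraries (Rag1CreT/+;Erg fl/fl, in which a Rag1-driven Cre deletes the floxed alleles of Erg, a transcription factor gene, in lymphoid progenitors), 2 CreT control libraries (Rag1CreT/+, Cre without floxed alleles) and 2 Erg fl/fl control libraries (Rag1Cre+/+;Erg fl/fl, floxed alleles without Cre), all labelled background strain C56BL/6. Mice were female except for replicate 2 of the Erg KO and replicate 2 of the Erg fl/fl controls, which were male. A culture of 8 days on OP9, a marrow stromal line used as feeder, with SCF, IL7 and FL had preceded the assay. B220 selection takes in B-lineage cells of more than 1 stage, so a change within a stage and a change in the mixture of stages cannot be told apart in these bulk libraries. Counts in bins of this size do not check the deletion within Erg.

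The MHC encodes the molecules that show peptides to T cells. Class I molecules, H2-K1 and H2-D1 among them, are found on most nucleated cells and present peptides made inside the cell, while class II molecules are made by antigen-presenting cells, B cells included, and present peptides taken up from outside. Between these gene groups lies the class III region, which holds genes for complement and for cytokines of the tumour necrosis factor family, and beyond H2-D1 follow the Q, T and M families of non-classical class I genes, whose products have narrower roles or tissues. In Hi-C, such a region is described by which of its stretches touch each other, by insulation (how few contacts cross a position) and by compartment, active A or inactive B chromatin.

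The window was divided by these families in their order along the chromosome. Bins 2 to 6 hold the K and class II genes (15 members), bins 7 to 14 the class III region (no H2- gene), bins 15 to 17 the D and Q genes (9 members), bins 18 to 22 an interval without H2- genes that carries Pou5f1, Ddr1, Flot1, Tubb5 and Mdc1 and is called the Q to T interval here, bins 23 and 24 the T genes (7 members), and bins 25 to 35 the M genes (13 members). Bin 1 is a flank without members. The class II bins follow the gene order: bin 3 holds H2-Oa with H2-Ke6, H2-Pa and H2-Pb, bin 4 the H2-DM genes, bin 5 H2-Ob, H2-Ab1 and H2-Aa, and bin 6 H2-Eb1, H2-Eb2 and H2-Ea-ps. H2-Ke6 encodes a steroid dehydrogenase and is no MHC molecule despite its symbol. Bin 15 holds H2-D1 and also the class III genes Tnf, Lta, Ddx39b and Nfkbil1. Bin 16 holds H2-Q1 to H2-Q5 and bin 17 H2-Q6, H2-Q7 (the Qa-2 antigen) and H2-Q10, which is secreted. Bin 23 holds H2-T24, H2-T23, H2-T22 and H2-Bl, and bin 24 H2-T-ps, H2-T10 and H2-T3. The M genes are spread out, with H2-M10.2 in bin 25, H2-M10.1 and H2-M10.3 in bin 26, H2-M10.5-ps1 and H2-M10.4 in bin 27, H2-M11 in bin 28, H2-M9 and H2-M1 in bin 29, H2-M10.5 in bin 30, H2-M10.6 in bin 31, H2-M6-ps and H2-M5 in bin 32 and H2-M3 in bin 35.

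CTCF, a DNA-binding protein, marks many domain borders in mammals, and the strand on which its recognition letters lie is known to matter for which borders pair. The letters CCANNAGNNGGC, a core of that motif in which N is any base, were therefore counted on both strands of every bin. A match is a description of the sequence and does not show binding. The core occurred in 95.2% of all kept autosomal bins, with a median of 2 matches per strand in each bin. In the MHC the strands were unequal in some families. The T bins held 12 plus-strand and 33 minus-strand matches, and the Q to T interval held 64 plus-strand and 41 minus-strand matches. Outside annotated repeats the T bins held 1 plus-strand and 25 minus-strand matches, and the Q to T interval 21 and 9. Bin 24 alone had 17 minus-strand matches, a number that 0.0592% of autosomal bins reach, and bin 17, with H2-Q6, H2-Q7 and H2-Q10, had 19 plus-strand matches, which 0.0296% of bins reach.

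Some of these matches are copies of each other. Of the 25 minus-strand matches of the T bins outside repeats, 12 carried the same 12 letters, and all 12 of these lay in annotated exons, 5 of them in exons of H2- genes and the other 7 in exons of gene models without an H2- name. Coding copies from the exons of H2-T24, a T-family gene, and of H2-T23, which encodes Qa-1, are shown first to make this plain. In the D and Q bins, 5 of the plus-strand matches outside repeats shared a different core, at 4112 to 4212 bases from the starts of H2-Q6, H2-Q7 and H2-Q10, at 4135 bases from that of H2-Q5 and at 24392 bases from that of H2-Q1, and none of the 5 lay in an annotated gene. Printed in full as 40 bases, these 5 copies differ from each other at 1 to 4 positions. Over the whole window the core repeated in the T bins had 30 copies, and that repeated in the D and Q bins had 7. The 21 plus-strand matches of the Q to T interval outside repeats held 18 distinct cores. The capitals mark the core letters, each sequence reads 5′ to 3′ on the strand named, and the sequences were chosen after their letters were seen.
H2-T24 exon, chr17:36014875-36014914, minus strand: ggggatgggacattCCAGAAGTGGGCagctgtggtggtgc
H2-T23 exon, chr17:36030897-36030936, minus strand: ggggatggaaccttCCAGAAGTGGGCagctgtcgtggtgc
Near H2-Q1, chr17:35295993-35296032, plus strand: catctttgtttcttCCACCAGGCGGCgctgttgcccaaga
Near H2-Q5, chr17:35389971-35390010, plus strand: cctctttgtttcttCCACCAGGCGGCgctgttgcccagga
Near H2-Q6, chr17:35420650-35420689, plus strand: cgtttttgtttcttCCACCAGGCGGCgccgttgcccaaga
Near H2-Q7, chr17:35435023-35435062, plus strand: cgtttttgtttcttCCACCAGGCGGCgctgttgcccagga
Near H2-Q10, chr17:35465857-35465896, plus strand: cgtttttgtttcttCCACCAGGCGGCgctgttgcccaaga

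A longer form of the motif, CCACNAGNNGGCAG, was rarer. It had 13 matches in 11 of the 35 MHC bins (31.4%), against 11.5% of all kept autosomal bins. The T bins held 2 of these matches, both on the minus strand and both outside exons, which differ at 1 of 40 positions, and bin 18 at the start of the Q to T interval held 2 on the plus strand outside genes. Bin 2, with H2-K1, held 2, of which the intergenic one is shown. The matches of bin 18 and of the T bins are shown because they lie at either end of the Q to T interval. Contacts of that interval with the M genes changed most. A further match inside the interval, on the minus strand of bin 21 within Dhx16, is not shown. Nor are those of M bins 32 and 35, both on the minus strand. The intergenic match of bin 2 is shown because bin 2 is a border in the mean profile of Erg KO and of the controls. Bin 15, also such a border, holds a match on the plus strand in an exon of Atp6v1g2, not shown. Any part of these letters in the contacts was not tested.
Bin 2 near H2-K2, chr17:33968668-33968707, plus strand: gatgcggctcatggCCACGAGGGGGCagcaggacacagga
Bin 18, chr17:35544863-35544902, plus strand: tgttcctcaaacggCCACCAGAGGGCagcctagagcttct
Bin 18, chr17:35578357-35578396, plus strand: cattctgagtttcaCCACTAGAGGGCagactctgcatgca
Bin 23 near H2-T23, chr17:36035498-36035537, minus strand: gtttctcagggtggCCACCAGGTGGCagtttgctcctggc
Bin 24 near H2-T-ps, chr17:36114450-36114489, minus strand: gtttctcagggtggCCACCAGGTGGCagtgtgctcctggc

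**Figure D1:**
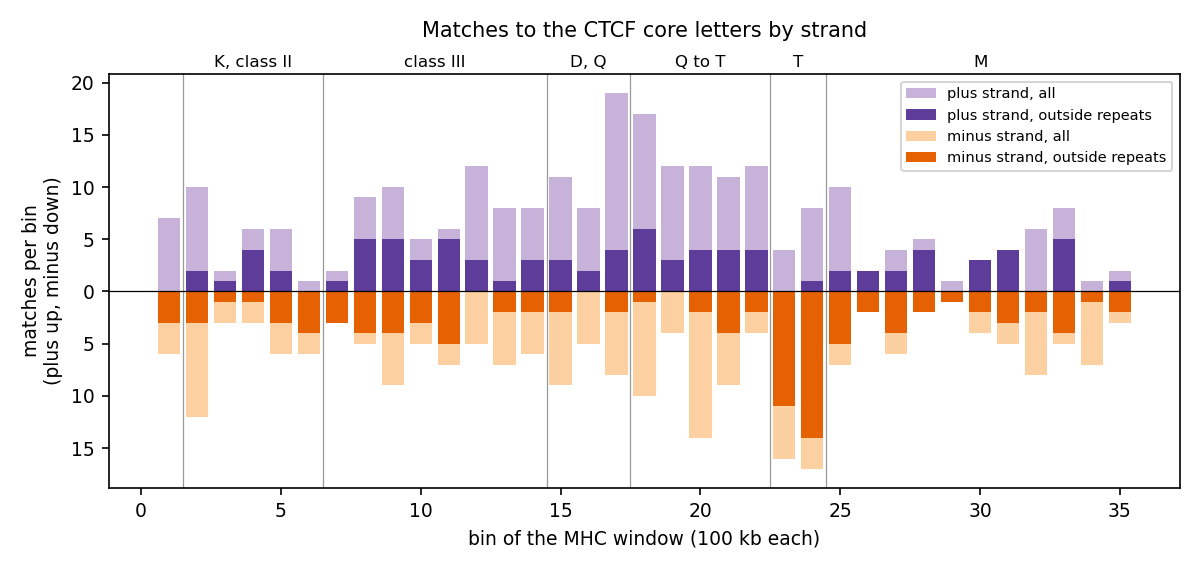
Matches of the 12-letter CTCF core in each of the 35 MHC bins, counted on the plus strand (upward bars) and the minus strand (downward bars), with matches outside annotated repeats in the darker shade. Bins 23 and 24 of the T family stand out on the minus strand and bin 17 of the Q family on the plus strand.

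The libraries held 58335904 and 57259415 read pairs in Erg KO, 62155453 and 68085468 in the CreT controls, and 43924865 and 29014581 in the Erg fl/fl controls. Contacts between chromosomes made up 32.3% and 34.6% of read pairs in Erg KO, against 21.6% to 26.8% in the 4 controls. Replicate 2 of the Erg fl/fl controls was the shallowest library and had the highest MHC values of many measures given below. The libraries differed in the base composition of what they covered, and the MHC is rich in G and C: the mean GC content was 49.0% in the K and class II bins, 49.9% in class III, 47.4% in T and 42.8% in M, against a median of 41.5% over all bins. Read coverage, the log2 of the total read pairs of a bin over the autosomal median, averaged 0.16 ± 0.068 over the 35 bins in Erg KO and 0.32 ± 0.049 in the controls (SD, n = 2 and 4). Both Erg KO libraries lay below all 4 controls in 31 of the 35 bins and above them in 1, where 38% and 38.5% of all bins did so. After removal of each library's trend with GC content the mean difference was 0.014, so coverage was no longer lower on average. Single bins still differed. In 5 of the 35 bins each Erg KO value was then lower than every control value, and in 16 it was higher. By family the difference was -0.069 in D and Q, where the groups overlapped. It was 0.033 in class III, 0.061 in the Q to T interval and 0.060 in T, where the groups did not overlap. The other parts lay between -0.0013 and 0.0014. Results are therefore given on the counts as they are, and again with GC content or with bin coverage taken out. With 2 libraries against 4 the exact permutation test, two-sided over 15 splits, cannot give a p below 0.0667, so single values per library are descriptions, and adjusted p-values come from the fits across the genome.

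Contacts inside the MHC were weaker in Erg KO cells. Of 630 possible bin pairs of the window 379 passed the count filters, and 139 of these fell and 1 rose in Erg KO against both controls (edgeR quasi-likelihood test, adjusted p under 0.05 over the genome), with a median log2 change of -0.43. Over all 431446 bin pairs tested on the autosomes 6.33% fell and 6.41% rose. In 118 of the 139 pairs both Erg KO libraries lay below all 4 controls on the scaled counts. The 139 pairs were called from these same counts, so this describes them and adds no separate support. Against the CreT controls alone 108 pairs fell and 1 rose (background 3.53% and 3.66%), against the Erg fl/fl controls alone 115 fell and 0 rose (5.19% and 4.16%). Both comparisons share the Erg KO libraries. Between the CreT and the Erg fl/fl controls no MHC pair was called by edgeR (background 0.000232%), 13 and 24 pairs having unadjusted p-values under 0.05 in the lower and the higher direction. Leaving out either Erg KO library left 0 bin pairs called in the MHC or anywhere in the genome, and leaving out replicate 2 of the Erg fl/fl controls left 59 that fell.

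Fewer pairs passed once base composition or coverage was taken out. With offsets for GC content 24 pairs fell and 7 rose, with a median of -0.11, and with offsets for bin coverage 26 fell and 0 rose, with a median of -0.13. The genome-wide shares were then 0.894% falling and 1.29% rising with GC offsets, and 0.419% and 0.189% with coverage offsets. Under all 3 scalings 19 pairs fell, and 13 of the 19 joined the Q to T interval to the M genes. Of the other 6, 4 lay within or between K, class II and class III, 1 joined class III bin 12 to the H2-D1 bin, and 1 joined bin 19 to T bin 24.

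**Figure D2:**
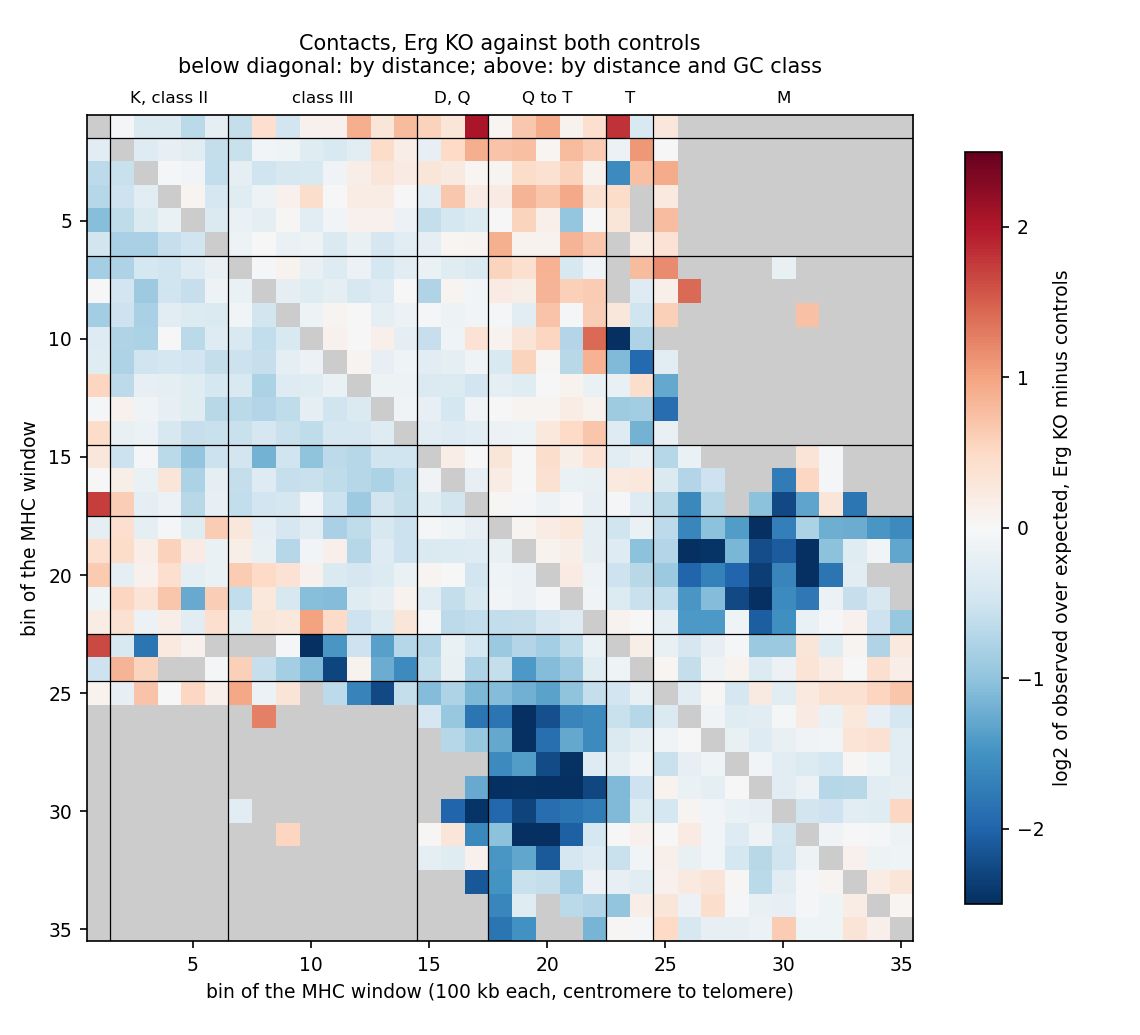
Change of contact between every pair of the 35 MHC bins, as log2 of observed over expected read pairs in Erg KO minus both controls, with the expectation by distance below the diagonal and by distance and GC class above it. Grey squares have fewer than 20 read pairs over the 6 libraries or lie on the diagonal, and the dark blue block joins the Q to T interval to the M genes on both sides.

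The largest log2 difference in contact between families was that between the Q to T interval and the M genes, a family whose H2-M10 members, with H2-M1 and H2-M9, accompany vomeronasal receptors and whose H2-M3 presents formylated peptides. Over all 55 bin pairs of these parts there were 298 and 337 read pairs in Erg KO, against 1039 and 775 in CreT and 765 and 1063 in Erg fl/fl controls, although the Erg KO libraries were deeper than the Erg fl/fl ones. Relative to the read pairs expected at the same distances in the same library, contact was 0.318 and 0.376 in Erg KO, against 0.813 and 0.615 in CreT and 0.783 and 1.31 in Erg fl/fl controls. All 4 controls lay above both Erg KO libraries, with replicate 2 of the Erg fl/fl controls highest. The log2 difference of the group means was -1.29 (exact permutation p = 0.0667, two-sided), -1.04 with the expectation set by distance and GC class and -1.14 on counts divided by bin coverage, and it ran between -1.44 and -1.08 when any 1 library was left out. Of the 34 bin pairs tested there, 27 fell in the count fit (median -1.87), 16 with GC offsets (median -1.49) and 13 with coverage offsets (median -1.53), and none rose. Pairs entered these fits by their count over all 6 libraries together, most of which came from the controls here. Pairs with few read pairs in the controls could thus go untested, and the absence of rises is in part set by this filter.

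Single pairs show the scale of this. Bin 19 (Gtf2h4, Vars2) and bin 26 (H2-M10.1, H2-M10.3) were joined by 2 and 4 read pairs in Erg KO, against 37 and 20 in CreT and 14 and 33 in Erg fl/fl controls. Each control had at least 14 read pairs and each Erg KO library at most 4. The log2 change was -3.36 ± 0.48 (SE; edgeR adjusted p = 3.19e-08), and -2.95 with GC offsets and -2.99 with coverage offsets. Bin 20 (Ddr1) and bin 31 (H2-M10.6) were joined by 2 and 0 read pairs in Erg KO, against 15 and 11 in CreT and 10 and 14 in Erg fl/fl controls. This gave a log2 change of -3.45 ± 0.72 (edgeR adjusted p = 0.000227) from counts near 0 in Erg KO, for which the fitted size depends on the prior count.

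Contacts of the Q to T interval with the neighbouring T genes were lower too. Among the 10 bin pairs between the Q to T interval and the T bins 8 fell in the count fit, 1 with GC offsets and 3 with coverage offsets. Bin 19 with bin 24, which holds H2-T3 (the TL antigen), H2-T10 (a ligand of gamma delta T-cell receptors) and H2-T-ps, had 13 and 20 read pairs in Erg KO, against 62 and 49 in CreT and 43 and 49 in Erg fl/fl controls. The groups did not overlap, and the log2 change was -1.64 ± 0.27 (edgeR adjusted p = 1.94e-06), -1.21 with GC offsets (edgeR adjusted p = 0.00285). Among the 66 pairs within the M bins 3 fell and 1 rose. The pair that rose was bin 34 with itself, a bin of Ubd and olfactory receptor genes without H2- genes, with 243 and 229 read pairs in Erg KO, against 213 and 245 in CreT and 183 and 116 in Erg fl/fl controls. The log2 change was 0.34 ± 0.099 (edgeR adjusted p = 0.0117), which missed the threshold with GC offsets (edgeR adjusted p = 0.238).

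The 5 bin pairs with the smallest p-values in the window all lay at the class II end or at H2-D1. H2-Oa's bin 3 and H2-Eb1's bin 6 led: DO, of which H2-Oa is the alpha chain, restrains peptide loading, and H2-Eb1 encodes the beta chain of the I-E class II molecule. This pair had 86 and 98 read pairs in Erg KO, against 202 and 191 in CreT and 149 and 158 in Erg fl/fl controls. Both Erg KO libraries were below every control, and the log2 change was -1.10 ± 0.13 (edgeR adjusted p = 2.52e-11), -0.73 with GC offsets (edgeR adjusted p = 8.65e-05) and -0.68 with coverage offsets (edgeR adjusted p = 0.000433). Bin 3 also lost contact with class III bin 8, which holds Notch4 and Ager. This pair had 40 and 68 read pairs in Erg KO, against 142 and 139 in CreT and 79 and 107 in Erg fl/fl controls. This gave a log2 change of -1.39 ± 0.17 (edgeR adjusted p = 7.11e-11).

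The other 3 of these pairs are given as counts scaled for depth. The H2-DM bin 4, whose genes encode the chaperone that loads class II molecules, and bin 6 had 119 and 170 in Erg KO, against 232 and 214 in CreT and 204 and 280 in Erg fl/fl controls. The log2 change was -0.81 ± 0.11 (edgeR adjusted p = 2.51e-09, and 0.00914 with GC offsets). Class III bin 12, which holds the heat shock genes Hspa1a and Hspa1b, and the H2-D1 bin 15 had 85.0 and 91.1 in Erg KO, against 141 and 136 in CreT and 145 and 228 in Erg fl/fl controls. This gave a log2 change of -0.97 ± 0.13 (edgeR adjusted p = 1.06e-08, and 0.00848 with GC offsets). The neighbouring bins 2, with H2-K1, and 3 had 239 and 294 in Erg KO, against 380 and 395 in CreT and 339 and 457 in Erg fl/fl controls. The log2 change was -0.65 ± 0.083 (edgeR adjusted p = 5.26e-10), and -0.23 with GC offsets (edgeR adjusted p = 0.138). In all 3 pairs both Erg KO libraries lay below every control on this scale.

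Summed over whole families, contact within the K and class II bins was 1.78 and 2.10 in Erg KO, against 2.68 and 2.63 in CreT and 2.35 and 2.89 in Erg fl/fl controls, as a multiple of the expectation at the same distance. All libraries thus had more contact there than the expectation, and Erg KO the least. The log2 difference was -0.44, -0.21 by GC class and -0.053 by coverage. Over the 21 pairs of families, both Erg KO libraries lay below all 4 controls in 15 and above them in 1, in 8 below and 5 above with the expectation by GC class and in 4 below and 6 above on counts divided by coverage. Besides the Q to T interval with M, those that lay below under all 3 were D and Q with M, class III with T, and the Q to T interval with T.

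D and Q contact with the M genes was 0.224 and 0.238 in Erg KO, against 0.361 and 0.331 in CreT and 0.400 and 0.550 in Erg fl/fl controls. Every control lay above both Erg KO libraries, and the Erg fl/fl controls above the CreT controls, and the log2 difference was -0.81, -0.56 by GC class and -0.56 by coverage. Class III contact with the T genes was 0.307 and 0.310 in Erg KO, against 0.489 and 0.550 in CreT and 0.535 and 0.608 in Erg fl/fl controls. The log2 differences were -0.82, -0.48 and -0.50. K and class II contact with the Q to T interval, the T genes and the M genes was on average not lower in Erg KO than in both controls together. With the T genes it averaged 0.55 ± 0.071 in Erg KO, 0.62 ± 0.012 in CreT and 0.41 ± 0.044 in Erg fl/fl controls (SD, 2 libraries each). Erg KO was thus lower than the CreT and higher than the Erg fl/fl controls there. The log2 differences from both controls were 0.13, 0.35 by GC class and 0.50 by coverage. With the M genes it was 0.273 and 0.283 in Erg KO, against 0.267 and 0.242 in CreT and 0.250 and 0.206 in Erg fl/fl controls. The log2 differences were 0.21, 0.34 and 0.59. With the Q to T interval it was 1.18 and 1.18 in Erg KO, against 1.14 and 1.26 in CreT and 0.862 and 0.894 in Erg fl/fl controls. Erg KO and the CreT controls overlapped, and the Erg fl/fl controls were lower. With the expectation by GC class and on counts divided by coverage both Erg KO libraries lay above all 4 controls, at log2 differences of 0.48 and 0.59.

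**Figure D3:**
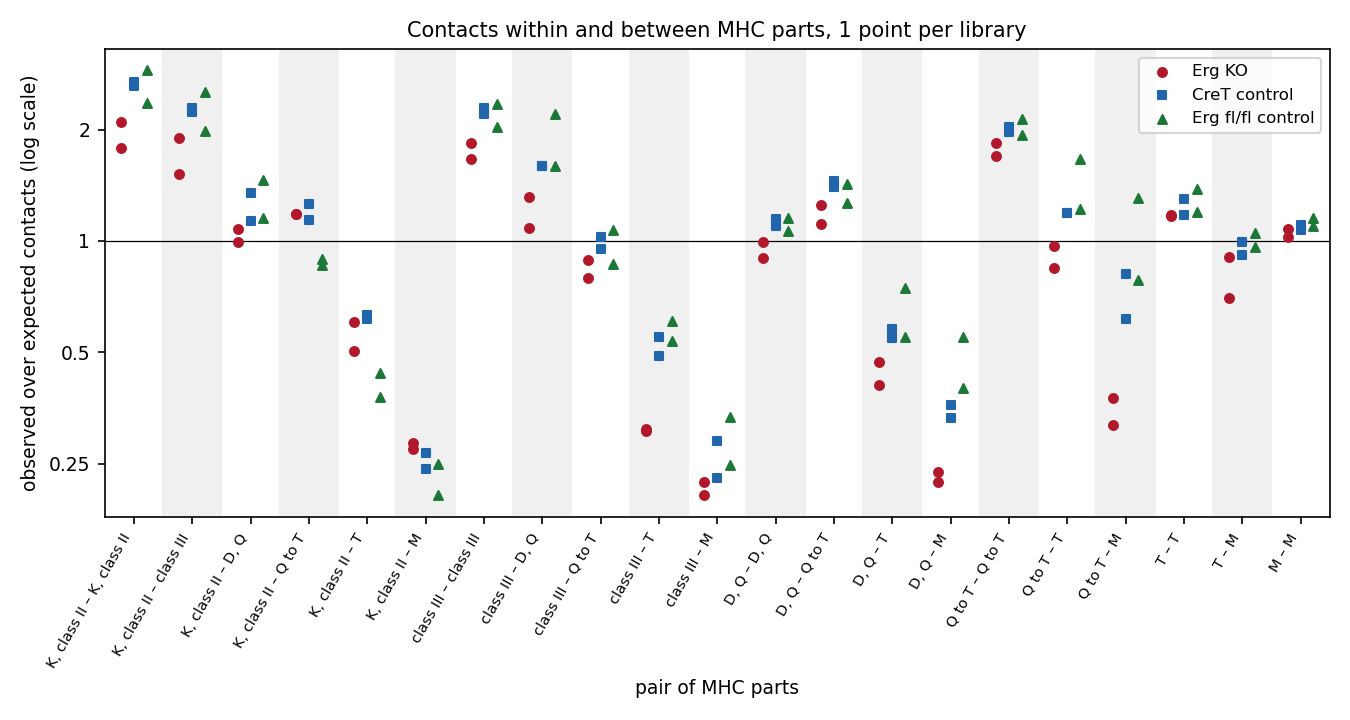
Observed over expected contacts (log axis) within and between the 6 MHC parts, 1 point per library, with Erg KO left of the CreT and Erg fl/fl controls. The widest gap between Erg KO and the controls is at the Q to T interval with M, where Erg KO lies at 0.318 and 0.376.

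Insulation was scored as the log2 of read pairs that cross a bin, from the 5 bins before it to the 5 after, over the mean of its chromosome in that library, so that a low score marks a strong border. In Erg KO 26 of the 35 MHC bins fell and 2 rose (limma, adjusted p under 0.05), where 28.4% of all 23201 bins tested fell and 39.3% rose. The bins that fell carry 34 of the 44 members, and 1 member lies in a bin that rose. Against the CreT controls alone 26 fell and 0 rose (genome 24% and 33.5%), and against the Erg fl/fl controls alone 26 fell and 2 rose (27.1% and 38.2%). With the GC trend removed 10 bins fell and 2 rose (genome 14.1% and 29%), with 19 and 2 members, and with counts divided by bin coverage 8 fell and 0 rose (13.7% and 11.2%), with 16 and 0 members. Fitted differences are given after the sex term and need not equal the differences of group means. Bins 4, 5 and 21 to 26 fell under all 3, that is 2 class II bins, 2 of the Q to T interval, both T bins and the first 2 of the M genes.

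The largest changes lay around the T genes, at bins 22 to 25. At bin 24 (H2-T3, H2-T10, H2-T-ps) the score was -1.54 and -1.16 in Erg KO, against -0.43 and -0.69 in CreT and -0.50 and 0.18 in Erg fl/fl controls. Both Erg KO libraries were far below all controls, of which replicate 2 of the Erg fl/fl controls was highest, and the log2 difference was -1.12 ± 0.11 (SE; limma adjusted p = 3.16e-05), -0.75 with the GC trend removed and -0.87 by coverage. At bin 25 (H2-M10.2) it was -1.75 and -1.28 in Erg KO, against -0.65 and -0.88 in CreT and -0.67 and -0.16 in Erg fl/fl controls. The difference was -1.05 ± 0.10 (-0.77 and -0.77 corrected). At bin 22 (Abcf1, Ppp1r10) it was -1.27 and -0.92 in Erg KO, against -0.12 and -0.36 in CreT and -0.19 and 0.38 in Erg fl/fl controls. The difference was -1.14 ± 0.095 (-0.72 and -0.80 corrected). Bin 23, with the most T genes (H2-T24, H2-T23, H2-T22 and H2-Bl), had -1.08 and -0.88 in Erg KO, against -0.13 and -0.35 in CreT and -0.10 and 0.46 in Erg fl/fl controls. The difference was -1.04 ± 0.10. The T bins together averaged -1.16 ± 0.21 in Erg KO and -0.20 ± 0.36 in the controls (SD, n = 2 and 4).

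At the classical genes the fall was smaller and depended on the correction. At the H2-K1 bin 2 the score was -0.98 and -1.03 in Erg KO, against -0.56 and -0.64 in CreT and -0.61 and -0.14 in Erg fl/fl controls. The log2 difference was -0.57 ± 0.11 (limma adjusted p = 0.000863), and -0.032 with the GC trend removed (limma adjusted p = 0.806). At the H2-D1 bin 15 it was -0.75 and -0.56 in Erg KO, against -0.33 and -0.31 in CreT and -0.29 and 0.19 in Erg fl/fl controls. The difference was -0.55 ± 0.086, and -0.11 with the GC trend removed (limma adjusted p = 0.281). The bin with the most Q genes, bin 16 (H2-Q1 to H2-Q5), had -0.53 and -0.28 in Erg KO, against -0.15 and -0.065 in CreT and -0.30 and 0.093 in Erg fl/fl controls. The difference was -0.38 ± 0.079, and -0.071 with the GC trend removed (limma adjusted p = 0.459). Bins 2 and 15 kept both Erg KO libraries below all controls, whereas at bin 16 replicate 2 of the Erg KO and replicate 1 of the Erg fl/fl controls overlapped.

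Class II bins 4 and 5 fell under every scaling. Bin 5, with H2-Ob (the beta chain of DO) and H2-Ab1 and H2-Aa (the chains of the I-A class II molecule), had 0.15 and 0.51 in Erg KO, against 0.91 and 0.82 in CreT and 0.71 and 1.11 in Erg fl/fl controls. Erg KO differed by -0.65 ± 0.058 (limma adjusted p = 3.16e-05), -0.31 with the GC trend removed (limma adjusted p = 0.00252) and -0.19 by coverage (limma adjusted p = 0.0252). Bin 4, with H2-DMa, H2-DMb1 and H2-DMb2, had -0.079 and 0.20 in Erg KO, against 0.67 and 0.53 in CreT and 0.46 and 0.86 in Erg fl/fl controls. The difference was -0.65 ± 0.067 (-0.20 and -0.19 corrected). Bin 6 with H2-Eb1 had 0.30 and 0.63 in Erg KO, against 0.98 and 0.90 in CreT and 0.77 and 1.18 in Erg fl/fl controls. The difference was -0.59 ± 0.058, which missed the threshold by coverage (limma adjusted p = 0.117). For bin 3 with H2-Oa the scores were -0.54 and -0.44 in Erg KO, against 0.031 and -0.11 in CreT and -0.13 and 0.32 in Erg fl/fl controls. The difference of -0.59 ± 0.091 became -0.036 with the GC trend removed (limma adjusted p = 0.733).

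Among the M genes, the bins with the most members, 2 each, differed among themselves. Bin 26 (H2-M10.1, H2-M10.3) had -0.94 and -0.56 in Erg KO, against -0.31 and -0.59 in CreT and -0.29 and -0.11 in Erg fl/fl controls. Erg KO differed by -0.49 ± 0.099 (limma adjusted p = 0.00107) and -0.43 with the GC trend removed, although replicate 2 of the Erg KO overlapped replicate 2 of the CreT controls. Bin 29 (H2-M1, H2-M9) had 0.15 and 0.42 in Erg KO, against 0.32 and 0.22 in CreT and 0.36 and 0.28 in Erg fl/fl controls. The difference was -0.036 ± 0.080 (limma adjusted p = 0.698). Bins 27 (H2-M10.4, H2-M10.5-ps1) and 32 (H2-M5, H2-M6-ps) differed by -0.19 ± 0.085 and 0.050 ± 0.079 (limma adjusted p = 0.0633 and 0.581), and bin 32 passed only with the GC trend removed, at 0.29 (limma adjusted p = 0.00981).

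**Figure D4:**
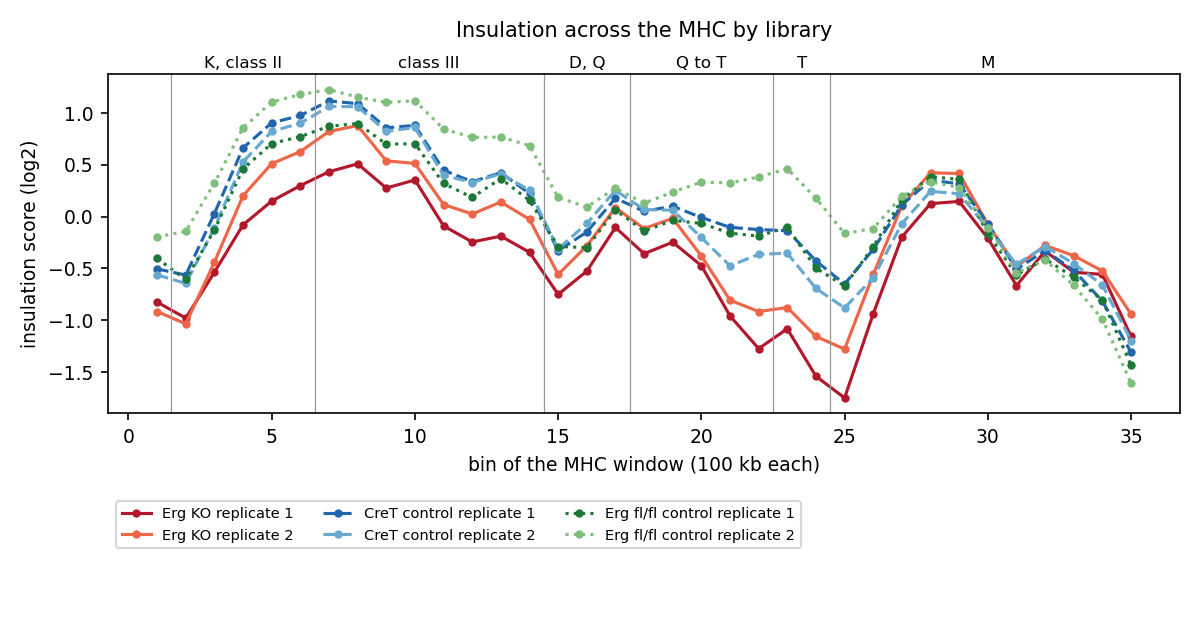
Insulation score (log2) across the 35 MHC bins, 1 line per library, Erg KO in red. The Erg KO lines lie lowest over most bins from 1 to 25, with the widest gap over bins 22 to 25, and cross the controls within the M genes.

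The profile of borders kept its main positions. Local minima of the mean control score lay at bins 2, 15, 21 and 25, those of Erg KO at bins 2, 15, 25, 31 and 35. The depth of the minimum at bin 25, between the T and the M genes, was 1.59 and 1.30 in the Erg KO libraries, against 0.82 and 0.90 in the CreT controls and 0.83 and 0.56 in the Erg fl/fl controls. Erg KO was deeper than every control there. Bin 21 (Flot1, Tubb5, Mdc1, Ier3), a minimum of the controls only, had scores of -0.96 and -0.81 in Erg KO, against -0.10 and -0.47 in CreT and -0.16 and 0.33 in Erg fl/fl controls. The log2 difference was -0.86 ± 0.11, and in Erg KO the bin lies on the slope towards bin 25. At the H2-K1 bin 2 the depth was 1.12 and 1.34 in Erg KO against 1.01 to 1.20 in the controls, and at the H2-D1 bin 15 it was 0.88 and 0.86 against 0.54 to 0.87, ranges that overlap or touch. Matches of the longer CTCF letters lie in bins 2, 15, 21 and 35 of these minima and not in bins 25 and 31. At the telomeric end bin 35, with H2-M3, rose: its score was -1.16 and -0.94 in Erg KO, against -1.31 and -1.20 in CreT and -1.44 and -1.61 in Erg fl/fl controls. The log2 difference was 0.33 ± 0.12 (limma adjusted p = 0.0227), which missed the threshold with the GC trend removed (limma adjusted p = 0.0536).

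Local contacts, the read pairs of a bin with bins 200 kb to 2 Mb away, are given as a multiple of the library median. Of the 35 MHC bins 31 fell and 0 rose (edgeR, adjusted p under 0.05), where 33.3% of all 23651 bins fell and 34.4% rose. These 31 bins hold 42 of the 44 members. With GC offsets 17 fell and 1 rose (17.1% and 16.7%), and with coverage offsets 31 fell and 0 rose (21.4% and 19%). Against the CreT controls alone 30 fell and 0 rose (30.2% and 30.3%), and against the Erg fl/fl controls alone 31 fell and 1 rose (31.5% and 32.1%). The T bin 23 changed most, with 0.483 and 0.601 in Erg KO, against 0.773 and 0.744 in CreT and 0.753 and 0.977 in Erg fl/fl controls. The groups did not overlap, and the log2 difference was -0.68 ± 0.082 (edgeR adjusted p = 5.4e-07), -0.36 with GC offsets and -0.53 with coverage offsets.

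Class III bin 8 and class II bin 3 came next. Bin 8 (Notch4, Ager) had 1.20 and 1.39 in Erg KO, against 1.83 and 1.84 in CreT and 1.62 and 2.20 in Erg fl/fl controls. Erg KO differed by -0.63 ± 0.061 (-0.22 with GC offsets). Bin 3 (H2-Oa) had 1.24 and 1.45 in Erg KO, against 1.91 and 1.89 in CreT and 1.72 and 2.24 in Erg fl/fl controls. The log2 difference was -0.62 ± 0.059, and -0.11 with GC offsets (edgeR adjusted p = 0.0789). Bins 31 and 33 to 35, with H2-M10.6 and H2-M3 as their H2- genes, were the 4 that did not pass, with log2 differences between -0.12 and 0.12. Of the M bins with members, bin 29, which holds H2-M1 and H2-M9, had 0.518 and 0.583 in Erg KO, against 0.699 and 0.629 in CreT and 0.650 and 0.762 in Erg fl/fl controls. Erg KO differed by -0.38 ± 0.090, and -0.36 with GC offsets (edgeR adjusted p = 0.000651).

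In all 6 libraries the MHC lay in the A compartment from its K end to the T genes and its score fell across the M genes, with means of 0.98 in Erg KO and 1.01 in the controls at bin 25 and of -0.56 in Erg KO and -0.54 in the controls at bin 35. Between these, at bins 28 to 34, the means ran between -0.24 and 0.075 in Erg KO and between -0.21 and 0.15 in the controls. The compartment score was scaled to an SD of 1 on each chromosome. At the H2-K1 bin 2 it was 1.71 and 1.69 in Erg KO, against 1.64 and 1.65 in CreT and 1.66 and 1.61 in Erg fl/fl controls. At the H2-D1 bin 15 it was 1.71 and 1.69 in Erg KO, against 1.60 and 1.62 in CreT and 1.64 and 1.56 in Erg fl/fl controls. On the counts as they are Erg KO was highest at both. With counts divided by coverage the difference at bin 2 turned to -0.078 and that at bin 15 to -0.012. Against both controls 21 bins rose and 2 fell (limma, adjusted p under 0.05; genome 13.5% and 6.62%). Against the CreT controls alone 7 rose and 0 fell (3.02% and 1.66%), and against the Erg fl/fl controls alone 19 rose and 1 fell (8.68% and 4.64%). The differences were small, with a median of 0.063 over the window and 0.030 over all bins, and the window median turned to -0.060 on counts divided by coverage. The largest were negative, in the M genes. At bin 28 (H2-M11) the score was -0.31 and -0.16 in Erg KO, against 0.024 and -0.033 in CreT and 0.052 and 0.11 in Erg fl/fl controls. Both Erg KO libraries were below 0 and the controls within 0.11 of it, and the difference was -0.30 ± 0.063 (limma adjusted p = 0.0379). Bin 29 (H2-M1, H2-M9) had -0.28 and -0.13 in Erg KO, against 0.028 and -0.0054 in CreT and 0.026 and 0.087 in Erg fl/fl controls. The difference was -0.27 ± 0.062. Bin 27 (H2-M10.4), which missed the threshold (limma adjusted p = 0.0566), had 0.0072 and 0.24 in Erg KO, against 0.39 and 0.36 in CreT and 0.35 and 0.35 in Erg fl/fl controls.

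No compartment change of the MHC passed the threshold under correction. With the GC trend removed, or with counts divided by bin coverage, 0 of the 35 bins passed by limma, where 2.19% of all bins fell and 1.61% rose with the GC trend removed and 0% by coverage. At an unadjusted p under 0.05 there were 4 lower and 6 higher bins with the GC trend removed, and 14 lower and 0 higher bins by coverage. The falls at bins 28 and 29 were -0.25 and -0.22 with the GC trend removed (limma adjusted p = 0.0537 and 0.0534). By coverage they were -0.13 and -0.10. The gains from class III to the Q to T interval reached 0.17 at bin 19, where the score was 1.68 and 1.64 in Erg KO, against 1.55 and 1.58 in CreT and 1.54 and 1.40 in Erg fl/fl controls. The gain was 0.13 with the GC trend removed (limma adjusted p = 0.0981). They also rested on the model, since without the sex term, or with the replicate number as a block in its place, 0 bins passed, and 2 bins rose without replicate 1 and 11 without replicate 2 of the CreT controls.

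**Figure D5:**
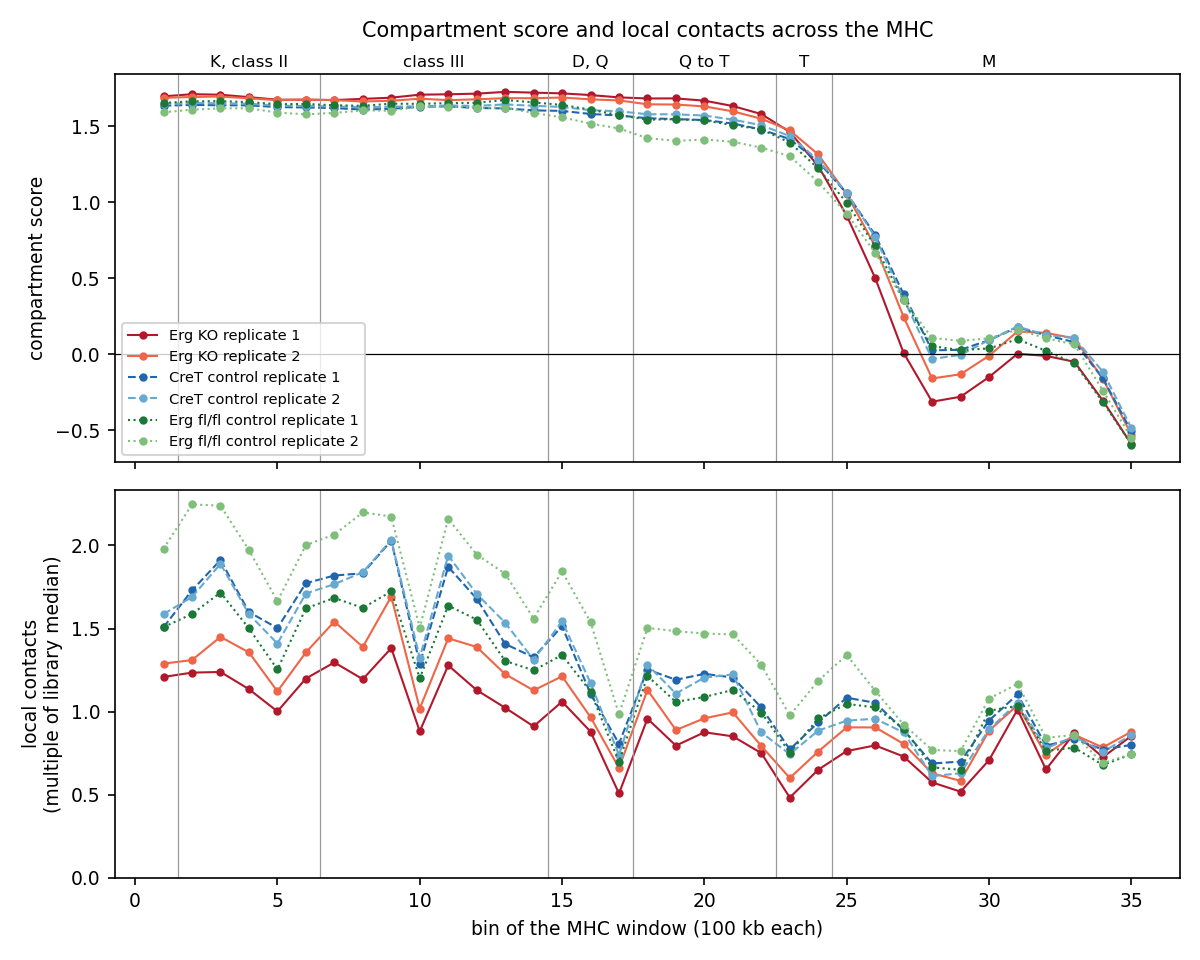
Compartment score (upper panel) and local contacts as a multiple of the library median (lower panel) across the 35 MHC bins, 1 line per library. Compartment scores are near 1.6 from K to the Q to T interval and drop over the M genes, past 0 and down to between -0.60 and -0.49 at bin 35, where the Erg KO lines lie lowest at bins 28 and 29, and local contacts of Erg KO lie below the controls over most bins.

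Genes of antigen processing and presentation, which supply or load the MHC molecules, were read by the same measures: Tap1, Tap2 and Tapbp of the peptide transport and loading complex, the immunoproteasome subunits Psmb8 to Psmb10, B2m, the light chain of class I, Cd74, the invariant chain of class II, the regulators Ciita, Nlrc5, Rfx5, Rfxank and Rfxap, and others, 21 genes in 19 bins. Of these, 5 genes in 3 bins lie in the MHC window itself. In 17 of the 19 bins insulation fell and in 0 it rose, where 28.4% of all bins fell, with a median change of -0.50 beside 0.076 over all bins tested. With the GC trend removed 10 fell, and by coverage 7 (genome 14.1% and 13.7%). Local contacts fell in 18, in 6 with GC offsets and in 15 with coverage offsets (genome 33.3%, 17.1% and 21.4%). The compartment score rose in 4 (genome 13.5%) and in none after correction. Marker genes of several lineages were listed as a check of cell type, in few bins each. Insulation fell in 7 of 10 B-lineage bins, 5 of 5 myeloid bins and 5 of 6 T-lineage bins, and rose in 1 T-lineage bin. Of the 8 stromal bins 4 fell and 4 rose, where 28.4% of all bins fell and 39.3% rose. With the GC trend removed 5 B-lineage, 3 myeloid, 2 T-lineage and 1 stromal bin fell, and 1 B-lineage, 1 T-lineage and 4 stromal bins rose, where 14.1% of all bins fell and 29% rose. By coverage 6 B-lineage, 3 myeloid and 3 T-lineage bins fell and 3 stromal bins rose (genome 13.7% and 11.2%). The 16 listed class III genes of the window, Tnf, Lta and Ltb and the complement genes C2, C4b and Cfb among them, lie in 7 bins. These take in the H2-D1 bin 15, counted above with D and Q, which holds Tnf, Lta, Ddx39b and Nfkbil1. In all 7 insulation and local contacts fell, whereas with the GC corrections they fell in 0 and in 4 of them.

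Hi-C gives no expression, so the labelled cell type could be checked only through the compartments of marker genes. Of 11 B-lineage genes, 9 had scores above 0 in every library, and their mean score was 0.75 and 0.89 in the 2 Erg KO libraries against 0.94 to 0.98 in the controls. For 8 stromal genes, as of OP9-like feeder cells, the mean ran from 0.28 to 0.48 in Erg KO and from 0.22 to 0.38 in the controls, with 4 above 0 in every library. For 5 myeloid genes it ran from 1.24 to 1.25 against 1.25 to 1.28, and for 6 T-lineage genes from 1.11 to 1.12 against 1.10 to 1.16. The part of a different cell mixture in the MHC results was not tested.

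Reads that fit several copies of a gene cannot be placed with certainty, and this bears on the class I families. Of the 50-base stretches of the D and Q bins 28.9% occur more than once on chromosome 17, 57.0% in bin 17 (H2-Q6, H2-Q7, H2-Q10), and 30.2% in the T bins, against 5.29% in the K and class II bins and 4.54% in the Q to T interval. These stretches are shorter than the 80-base reads. The processing described names no filter for reads with several matches. Values of the Q and T bins may thus rest on the unique remainder or take in misplaced reads. In the M bins the share was 11.1%, and among its bins it was highest in bin 27, at 18.6%.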

How the data were processed

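Hi-C libraries of B-cell progenitors were analysed from the deposited counts. The authors aligned read pairs to mm10 with diffHic and bowtie2, marked duplicates, removed dangling ends and overlong fragments, and deposited raw read-pair counts for pairs of genomic bins of about 100 kb, with no normalization. Bins with 0.3 to 3 times the autosomal median of read pairs were kept, which took in all 35 MHC bins. The bin pairs of all autosomes were tested with edgeR 4.0.16 (quasi-likelihood, robust; a count minimum of 10 read pairs in all libraries together and an abundance of at least 5 times that between chromosomes) with loess offsets. Insulation and compartment scores were tested with limma 3.58.1 (robust, trend), and local contacts with edgeR after TMM scaling, in R 4.3.3. Each model held group and sex, since only 1 library of the Erg KO and 1 of the Erg fl/fl controls were male, and p-values were adjusted by the Benjamini-Hochberg method over all autosomal bin pairs or bins. Both controls were weighted equally in the contrast, and all differences are Erg KO minus controls. The libraries of the Erg KO differ in sex, as do those of the Erg fl/fl controls, so each of these groups came from more than 1 mouse. For the CreT controls, all female, the labels leave this open. P-values measure the spread between these libraries, part of which may be technical.

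GC content was read from the mm10 genome and taken out through offsets by GC class, or as a trend per library for the scores, and bin coverage through offsets or by division. Expected contacts are the mean at the same distance in the same library. Alternatives were other offsets, TMM, another count minimum without the abundance filter, no sex term, the replicate block, DESeq2 1.42.0 and each library left out. The bin-pair fit with loess offsets and the local contact fit were tested on simulated counts, and the limma fits on simulated scores. The corrections for GC content and for coverage were not tested in this way. Genes and exons were taken from GENCODE, and sequences from the mm10 genome. The members and the gene lists were chosen with earlier results of these data known. Named with values were the H2-K1, H2-D1 and class II bins, the bin with the most genes and the bin with the largest change of each class Ib part, and the leading bin pairs, beside the sequences and the Q to T interval pairs, which were chosen after their values were seen.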

Additional observations from a re-analysis of the deposited data

How the results depend on the processing

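Of 379 bin pairs inside the MHC 139 fell with loess offsets, against 174 with distance offsets and 116 with TMM (genome 6.33%, 7.75% and 5.63%). At a count minimum of 20 without the abundance filter 469 pairs of the window were tested, and 123 of these fell (genome 1.43%). Fewer fell without the sex term (91, genome 3.08%), with offsets for GC content (24, genome 0.894%) and with offsets for bin coverage (26, genome 0.419%). The same held with offsets for GC content and distance (24, genome 0.764%, chosen after seeing the data) and with DESeq2 (10). With DESeq2 0.699% fell of the 147044 pairs of the genome that had an adjusted p. Leaving out each library gave 0 to 149, the 0 without either Erg KO library, when no bin pair of the genome passed, and 59 without replicate 2 of the Erg fl/fl controls. With GC offsets as well, an alternative chosen after seeing the data, it gave 1 to 31. It gave 14 and 22 without replicates 1 and 2 of the CreT controls. These counts were lowest, far under the 24 of all libraries, without replicate 2 of the Erg KO or of the Erg fl/fl controls. The median log2 changes with GC offsets were then -0.086 and -0.10, against -0.11 with all libraries. Insulation fell in 26 of 35 bins, in 10 with the GC trend removed, in 8 with counts divided by coverage, and in 25 to 29 with each library left out. Compartment scores rose in 21 bins (genome 13.5%), and in 0 without the sex term, with the GC trend removed or with counts divided by coverage. With each library left out the share of all bins that rose varied widely. Only the median change of the window is therefore given for those fits, which ran between 0.052 and 0.088. Local contacts fell in 31 bins, in 17 with GC offsets and in 29 to 32 with each library left out. Where a male library was left out, the sex term rested on the other male library, which then carried no weight. Both Erg KO libraries lay below all controls in 15 of 21 family pairs and above them in 1, in 8 and 5 by GC class and in 4 and 6 by coverage, and below in 15 to 18 with each library left out. The cause of these losses was not tested. The mean coverage difference of -0.16 was 0.014 with the GC trend removed and ran between -0.21 and -0.11 with each library left out.

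Of the 21 family pairs 13 kept their direction under every alternative run. The other 8 turned, at log2 differences, by GC class and by coverage, of 0.035 and 0.19 for K and class II with D and Q, 0.17 and 0.13 for class III with the Q to T interval, 0.024 and 0.18 within D and Q, 0.098 and 0.16 for D and Q with the Q to T interval, 0.084 and 0.079 within that interval, and 0.14 and 0.12 within T. Within class III it was 0.021 by coverage, and for K and class II with T it ran between -0.011 and 0.26 with each library left out, at -0.0036 without replicate 2 of the Erg KO and -0.011 without replicate 2 of the Erg fl/fl controls.

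A replicate block in place of sex gave 93 bin pairs, 24 insulation bins and 29 local contact bins that fell, and 0 compartment bins that rose. Same-numbered libraries did not deviate together in every pair of groups (correlations of insulation deviations of 0.50 for Erg KO with Erg fl/fl, -0.19 for Erg KO with CreT and -0.48 for CreT with Erg fl/fl). For Erg KO with Erg fl/fl, where a number also carries sex, the correlations were 0.75 for coverage and 0.21 for compartment scores. Of the 630 bin pairs 379 passed the count and abundance filters. The others were not tested, except those among the 469 pairs of the fit without the abundance filter.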
